A study of Mus musculus with 6 samples.

Results

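Genes that code for surface and secreted proteins of homeostatic microglia, the resident macrophages of the brain, were followed in single cells of the mouse hippocampus. They are Tmem119, Cx3cr1, Siglech, Selplg, Fcrls, Slc2a5, Olfml3, Sparc and Cst3, 9 of the 32429 genes in the raw count tables. They were taken as a given list, which was chosen with earlier results of these data known. Live CD45+ cells were sorted from perfused hippocampi dissected without meninges and choroid plexus, and were sequenced from the 5′ end of each transcript. All mice were of the strain labelled BC57BL/6, and the sources used here give no age, no sex and no number of mice behind a library.

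Learned helplessness is a stress model in which mice that received footshocks they could not escape later fail to escape when they can. There were 6 libraries, 1 per group. One came from mice that were not shocked. Another 2 came from the acute paradigm (180 inescapable shocks of 0.3 mA, then a test of 30 trials of 24 s on the next day): mice that were learned helpless and mice that were not. The other 3 came from the chronic paradigm, in which mice went through the acute paradigm and were retested each week for 3 weeks: mice that were never helpless (non-helpless), mice that stayed helpless (non-recovered) and mice that lost their helplessness (recovered). With 1 library per group there is no spread between replicates and no test. Intervals below are exact 95% intervals that cover counting error only.

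The authors' annotation called 2721 of 3005 cell barcodes microglia, with 11014370 unique molecular identifiers (UMIs, each counting 1 captured transcript). The libraries held 372 to 630 microglia, except the non-recovered library with 99, and the median microglial depth ran from 2497 UMIs (non-recovered) to 4579.5 UMIs (recovered). The deposited batch numbers put the acute helpless cells in batch 1, the acute non-helpless cells in batch 2 and the chronic cells in batch 3. Non-shocked microglia lay in batch 2 (123 cells, median 905 UMIs) and batch 3 (429 cells, median 3906 UMIs), and non-shocked cells of the same batch were used as controls where there were any. No pair of libraries shared more than 1 cell barcode. There were 2 sets of cells that stood apart, the non-recovered microglia and the batch 2 non-shocked microglia: 53.5% and 64.2% of their cells were ribosome-poor, with under 2.5% of UMIs in ribosomal protein genes, against 8.96% to 15.9% in the other shocked libraries and 34.3% in batch 3 non-shocked microglia.

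Microglia at rest survey the tissue and are known by a set of genes that other brain cells and most blood leukocytes express little or not at all, and that depend in part on transforming growth factor beta. Tmem119 is a membrane protein used to mark microglia. Cx3cr1 is the receptor for fractalkine, a ligand made by neurons. Siglech is a sialic acid-binding lectin that pairs with the adaptor Tyrobp, and Selplg is the selectin ligand PSGL-1, which many leukocytes carry. Fcrls is an Fc receptor-like protein, and Slc2a5 is the fructose transporter GLUT5. Olfml3 is a secreted olfactomedin-like protein, Sparc is a secreted matricellular protein that modulates the extracellular matrix, and Cst3 is cystatin C, a secreted inhibitor of cathepsins.

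All 9 genes are protein-coding in the GENCODE annotation of mouse build mm10. Tmem119 (chr5:113793729-113800516, minus strand) and Selplg (chr5:113818536-113832644, minus strand) are neighbours with 18019 bases between them. Cst3 lies at chr2:148871722-148875692, Fcrls at chr3:87250758-87263738 and Olfml3 at chr3:103722222-103738001, all on the minus strand. Sparc lies at chr11:55394500-55423183 and Cx3cr1 at chr9:119901616-120069879, both on the minus strand, and Siglech at chr7:55768178-55778925 and Slc2a5 at chr4:150119283-150144169 on the plus strand.

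The promoters of 3 members are shown because Cst3 and Olfml3 were the genes furthest below the other chronic libraries in non-recovered microglia, whereas Fcrls was the 1 member whose median ratio of ribosome-poor to other microglia was above 1. RefSeq promoters of GRCm38.p6, 250 bases before to 50 bases after the start, were matched for 7 of the 9 genes. The longest run of bases before the start that no annotated exon covers is printed 5′ to 3′ on the gene's strand. Further exon-free bases before the start of Cst3 and Fcrls, outside that run, are not printed. Capitals mark GAGGAA (the core bound by the myeloid ETS factor PU.1), TATAAA (the TATA box) and GGGCGG (the GC box) on either strand, where matches may overlap. The stretches are chr2:148875693-148875762 for Cst3, chr3:103738002-103738251 for Olfml3 and chr3:87263600-87263677 for Fcrls. They lie 250 to 181 bases before the RefSeq start for Cst3, 250 to 1 for Olfml3 and 153 to 76 for Fcrls. The Fcrls stretch lies inside the GENCODE span of the gene given above.
Cst3: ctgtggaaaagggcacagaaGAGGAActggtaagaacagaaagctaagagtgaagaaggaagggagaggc
Olfml3: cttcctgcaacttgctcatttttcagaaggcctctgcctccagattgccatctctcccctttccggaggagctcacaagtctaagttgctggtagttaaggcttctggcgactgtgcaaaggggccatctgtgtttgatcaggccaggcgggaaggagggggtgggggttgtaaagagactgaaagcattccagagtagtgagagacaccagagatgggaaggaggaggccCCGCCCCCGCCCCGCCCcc
Fcrls: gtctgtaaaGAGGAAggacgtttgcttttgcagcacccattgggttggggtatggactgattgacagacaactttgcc
The printed Cst3 and Fcrls stretches each hold 1 GAGGAA, and the Olfml3 stretch holds 3 partly overlapping GC boxes, read as CCGCCC, and no GAGGAA. The whole windows of 300 bases hold in addition 2 GC boxes for Cst3 and 1 TATA box for Fcrls. Among 32851 promoters of 300 bases, 28.3% held GAGGAA, 13.6% TATAAA and 35.7% GGGCGG. The matches describe letters in these windows and nothing about binding.

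Microglia carried all 9 genes at high levels. Over all microglia Cst3 was the gene with the most UMIs of all, 55191 CPM (UMIs of the gene in the summed cells, scaled to a total of 1000000; interval 55053 to 55330), or 5.52% of all microglial UMIs. Each captured transcript counts once whatever its length, so the levels of different genes are compared as transcripts captured. Selplg followed at 5626 CPM, Sparc at 5304, Cx3cr1 at 4935, Tmem119 at 3195, Olfml3 at 3017, Fcrls at 2591, Siglech at 1589 and Slc2a5 at 373 CPM. Counted by UMIs, 8 of the 9 were among the 50 most abundant genes of microglia, and Slc2a5 was at rank 371. Cst3 made up 67.5% of the UMIs of the 9 genes together.

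At least 1 UMI of Cst3 was found in 99.8% of microglia, of Selplg and Cx3cr1 in 98.7%, of Sparc in 98.5%, of Tmem119 in 96.6%, of Olfml3 in 95.7%, of Fcrls in 95.1%, of Siglech in 93.6% and of Slc2a5 in 67.0%. In the 17 B cell barcodes, a cell type that should lack most of these genes, the share was 0% for Tmem119, Fcrls, Olfml3 and Slc2a5 (an upper limit of 19.5%) at a median of 4670 UMIs, against 3987 in microglia. After each cell was thinned to 1000 UMIs, Slc2a5 was found in 29.9% of microglia and Siglech in 75.2%. All 9 genes were detected together in 1714 of the 2721 microglia (63.0%), from 47.5% of the non-recovered to 73.7% of the recovered microglia. Only 10 microglia had 2 or fewer of them and 2 had none.

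The cells called microglia carried other markers of microglia. P2ry12, the purinergic receptor by which microglia sense nucleotides, stood at 5583 CPM in the non-recovered and 6026 to 7578.5 CPM in the other 5 libraries. Csf1r, the receptor for the growth factors on which microglia depend, ranged from 3579 CPM in the acute helpless to 7713 CPM in the chronic non-helpless library. For Sparc and Cst3, which endothelium and astrocytes are known to express, the defining markers of those cells were at or near 0 in microglia: Cldn5 had 0 UMIs, Aqp4 1, Gja1 and Slc1a2 2 each, and the 3 mural cell markers 0. The 5 endothelial markers summed to 375 CPM in the non-recovered and 559 to 634 in the other libraries, nearly all of it Bsg, and the 6 astrocyte markers to 159 to 256 CPM, nearly all of it Slc1a3. Pecam1, which endothelium and some leukocytes express, had 308 UMIs. The choroid plexus marker Ttr stood at 1257 CPM in recovered microglia and at 0 to 62.4 CPM in the other libraries. The plasmacytoid dendritic cell marker Ccr9, of interest because those cells also express Siglech, had 3 UMIs.

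The surface genes differed little between libraries. Tmem119 stood at 2896 CPM in the non-shocked, 2945 in the acute non-helpless, 3663 in the acute helpless, 3179 in the chronic non-helpless, 2491 in the non-recovered, and finally 3258 CPM in recovered microglia. The acute helpless library was highest and the non-recovered lowest, and 2 of the 5 neighbouring pairs in that order had overlapping intervals. Selplg, its neighbour on chromosome 5, followed the same pattern, at 5172, 5494, 6053, 5741, 4432 and 5687 CPM in the same order of libraries. Its 2 overlapping pairs of neighbours lay between the acute non-helpless, recovered and chronic non-helpless libraries.

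Cx3cr1 was the most even member, at 5101, 4665, 4505, 5379, 5087 and 5210 CPM from the non-shocked to the recovered library. Its highest library was 1.19-fold above its lowest, its 2 acute libraries were the lowest, and 4 of its 5 neighbouring pairs overlapped. Siglech stood at 1507, 1653, 1756, 1499, 1273 and 1500 CPM, with both acute libraries above the rest and the non-recovered lowest. Fcrls stood at 2593, 2211, 2685, 2801, 2148 and 2760 CPM, with the acute non-helpless and non-recovered libraries at the bottom and overlapping. Slc2a5, at 361, 311, 392, 381, 365 and 426 CPM, had overlapping intervals in all 5 neighbouring pairs.

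The secreted genes included the widest spread. Olfml3 stood at 2995, 2772, 3195, 3094, 2099 and 3150 CPM in the same order, so that the non-recovered library lay apart below 5 libraries close together. Sparc stood at 5100, 4695, 5613, 5564, 4563 and 5649 CPM, with the acute non-helpless and non-recovered libraries lowest and overlapping. Cst3 stood at 50192, 55237, 61398, 52788, 34491 and 57419 CPM, and no neighbouring pair of its order overlapped. Its highest level was 1.78-fold its lowest, the widest range of the 9. Over the 9 genes the median of this ratio was 1.37, against 1.65 over the 3674 genes with a mean of at least 50 CPM.

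Of the 9 genes, 7 were lowest in the non-recovered library, Cx3cr1 and Slc2a5 being the exceptions. How many of all genes were lowest in that library was not counted, so the 7 are not set apart from genes in general. Most of all genes measured were lower in non-recovered than in recovered microglia (3081 of 4262). The minimum of UMIs described below raises that share. The 2 batches of the non-shocked library also differed: Cst3 was at 32319 CPM in batch 2 and 52028 in batch 3, Tmem119 at 2046 and 2984, and Selplg at 3755 and 5318. Siglech went the other way, at 1811 CPM in batch 2 and 1476 in batch 3. Batch 2 non-shocked cells were thus about as low in Cst3 as the non-recovered cells, and in both sets over 50% of the cells were ribosome-poor.

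**Figure D1:**
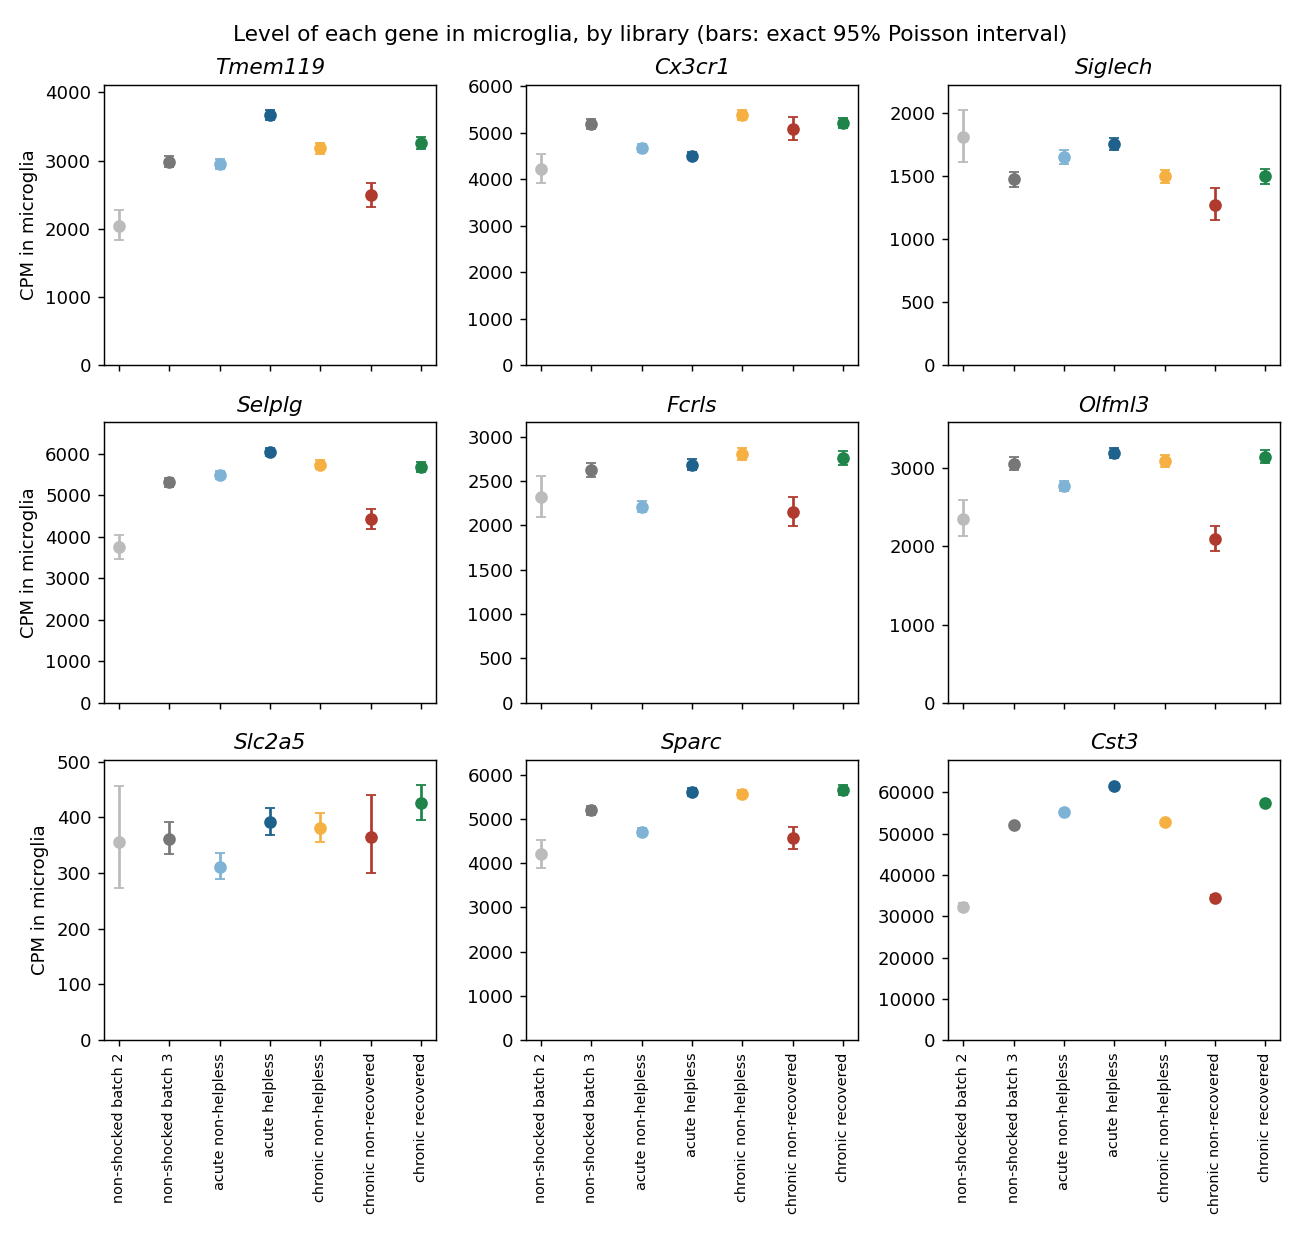
Level of each gene in microglia (CPM of summed UMIs, linear axis from 0) in each library, with the non-shocked library split by deposited batch. Points are single libraries and bars are exact 95% Poisson intervals, which cover counting error only. The non-recovered library and the batch 2 non-shocked cells lie lowest for Tmem119, Selplg, Olfml3, Sparc and Cst3, and Cx3cr1 varies least over the 6 libraries.

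The first comparison set helpless against non-helpless mice on the day after the shocks. In the acute paradigm, 8 of the 9 genes were higher in helpless than in non-helpless microglia, all by less than 1.5-fold. The largest ratios were 1.26 for Slc2a5 (interval 1.14 to 1.39), 1.24 for Tmem119 (1.21 to 1.28) and 1.21 for Fcrls (1.17 to 1.26). Cst3 stood at a ratio of 1.11 and Cx3cr1 at 0.97 (0.94 to 0.99). None of the 9 genes was 1.5-fold apart, where 18.2% of the 6907 genes measured were (8.89% higher and 9.28% lower). A gene was measured if the library with the higher level had 20 CPM and 30 UMIs or more. The median ratio of the 9 was 1.15 and that of all genes 0.96, with 2974 of the 6907 above 1. The 2 libraries came from different batches, so batch and behaviour cannot be told apart. The 8 genes above 1 were the same under all 11 other settings tried. Some of these could not differ. A minimum of 5 CPM without a UMI minimum leaves each ratio as it is. The acute libraries held 0 microglia with at least 20 neutrophil UMIs to leave out.

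Against non-shocked microglia, 8 of 9 genes were again higher in acute helpless cells, with Tmem119 at a ratio of 1.26 (1.22 to 1.31), Cst3 at 1.22 (1.21 to 1.23), and Selplg and Siglech at 1.17. Cx3cr1 was lower, at 0.88 (0.86 to 0.91). Of the 7392 genes measured, 2922 were above 1. None of the 9 was 1.5-fold apart, against 31.8% of all genes (7.62% higher and 24.2% lower). The share was 29.0% once 286 genes were left out that had no UMI in any cell of batches 1 and 2, or none in batch 3, and many in the other set. Against batch 2 non-shocked cells alone, however, Tmem119, Selplg and Cst3 were past 1.5-fold, Cx3cr1 turned to 1.07 and Siglech to 0.97.

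Acute non-helpless microglia were set against non-shocked cells of the same batch. One gene of 9 was at least 1.5-fold higher, Cst3 with a ratio of 1.71 (1.66 to 1.76), and 39.2% of all genes were higher by that much, 10.4% lower and 49.6% apart in either direction. Selplg (1.46) and Tmem119 (1.44) came next, and Siglech, Fcrls and Slc2a5 lay below 1 with intervals that held 1, and Siglech and Fcrls lay above 1 once libraries were scaled by median-of-ratios size factors. The median ratio of the 9 was 1.12 and that of all genes 1.34. The non-shocked side of this comparison was shallow, and 64.2% of its cells were ribosome-poor. Among cells with at least 2.5% ribosomal protein UMIs the Cst3 ratio was 1.23, and against all non-shocked cells no gene was past 1.5-fold.

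In the chronic paradigm, mice that stayed helpless were set against mice that recovered. Ratios of non-recovered to recovered microglia lay below 1 for all 9 genes, as they did for 3081 of the 4262 genes measured. The non-recovered microglia held 303934 UMIs and the recovered 1726795, so genes at low levels were measured only where higher in recovered microglia. The minimum of UMIs thus tilts the values of all genes here toward ratios below 1. The 2 choroid plexus markers summed to 1262 CPM in recovered and 9.87 CPM in non-recovered microglia, and their part in these ratios was not tested. Cst3 was 1.66-fold lower (1.63 to 1.70) and Olfml3 1.5-fold lower (1.38 to 1.63), and these 2 were the members at least 1.5-fold lower, where 21.8% of all genes were that much lower, 10.7% higher and 32.5% apart in either direction. Tmem119 was 1.31-fold lower, Selplg and Fcrls 1.28-fold, Sparc 1.24-fold and Siglech 1.18-fold. Cx3cr1 at a ratio of 0.98 (0.92 to 1.03) and Slc2a5 at 0.86 (0.70 to 1.05) had intervals that held 1. The median ratio of the 9 was 0.78 and that of all genes 0.86.

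One barcode of the 99 non-recovered microglia carried 3597 UMIs of 6 neutrophil markers (S100a8 and S100a9 among them, with Retnlg and Mmp9 at 0) and 5.63% of the microglial UMIs of its library. The 6 markers summed to 12164 CPM in non-recovered microglia, and to 188 to 1161 CPM in the other libraries, where Csf3r was found in each. Monocyte markers summed to 885 CPM there and to at most 15.4 CPM in each other library. Without that barcode Cst3 was 1.57-fold lower than in recovered microglia, Olfml3 was 1.42-fold lower, and the ratio of Cx3cr1 was above 1. Among microglia with at least 2.5% ribosomal protein UMIs (46 non-recovered cells) Cst3 stood at a ratio of 0.75 and Olfml3 at 0.76, Fcrls was the furthest from 1 at 0.71, and none of the 9 was past 1.5-fold.

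Against the chronic non-helpless library all 9 genes were also lower in non-recovered microglia, as were 3258 of the 4395 genes measured. The minimum of UMIs raises that share. Cst3 was 1.53-fold lower (ratio 0.653, 0.640 to 0.667), the 1 member past 1.5-fold where 21.2% of all genes were that much lower, 9.33% higher and 30.5% apart either way. Olfml3 was 1.47-fold, Fcrls and Selplg 1.30-fold and Tmem119 1.28-fold lower. The medians were 0.78 for the 9 genes and 0.85 for all genes. Without the barcode rich in neutrophil markers, and 1 like it in the chronic non-helpless library, Cst3 was 1.45-fold lower and the ratio of Slc2a5 was above 1, and among cells with at least 2.5% ribosomal protein UMIs Cst3 stood at 0.80 and Fcrls at 0.68.

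Against non-shocked cells of the same batch, 8 of 9 genes were lower in non-recovered microglia, as were 3303 of the 4476 genes measured. Slc2a5 stood at 1.01 (0.82 to 1.24), or below 1 with size factors or with totals that left out mitochondrial and ribosomal protein genes. The interval of Cx3cr1 (0.98, 0.93 to 1.03) held 1, and its ratio was 1.04 without the barcode rich in neutrophil markers, with equal cell weights, and among cells with at least 0.5% marker or 2.5% ribosomal protein UMIs. Cst3 was 1.51-fold lower (1.48 to 1.54), the 1 member past 1.5-fold, where 17.6% of all genes were that much lower, 5.63% higher and 23.3% apart either way. Olfml3 was 1.46-fold lower. Without the same barcode Cst3 was 1.42-fold lower, and among cells with at least 2.5% ribosomal protein UMIs its ratio was 0.77. The 3 comparisons of the non-recovered library share that library, so they are not independent of each other.

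The remaining chronic libraries were close together. Recovered against chronic non-helpless microglia differed by less than 1.5-fold in all 9 genes, where 7.25% of all genes were apart (4.04% higher and 3.2% lower), and ratios ran from 0.97 for Cx3cr1 to 1.12 for Slc2a5 (1.01 to 1.24). Cst3 was at 1.09 (1.08 to 1.1). Chronic non-helpless against same-batch non-shocked microglia gave ratios of 1.01 to 1.08 for the 9 genes, with none past 1.5-fold where 17.1% of all genes were (3.73% higher and 13.3% lower). Recovered against the same non-shocked cells gave ratios of 1.00 for Cx3cr1 to 1.18 for Slc2a5 (1.06 to 1.31), with none past 1.5-fold where 16.4% of all genes were (3.58% higher and 12.9% lower). The comparisons share non-shocked and chronic libraries.

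**Figure D2:**
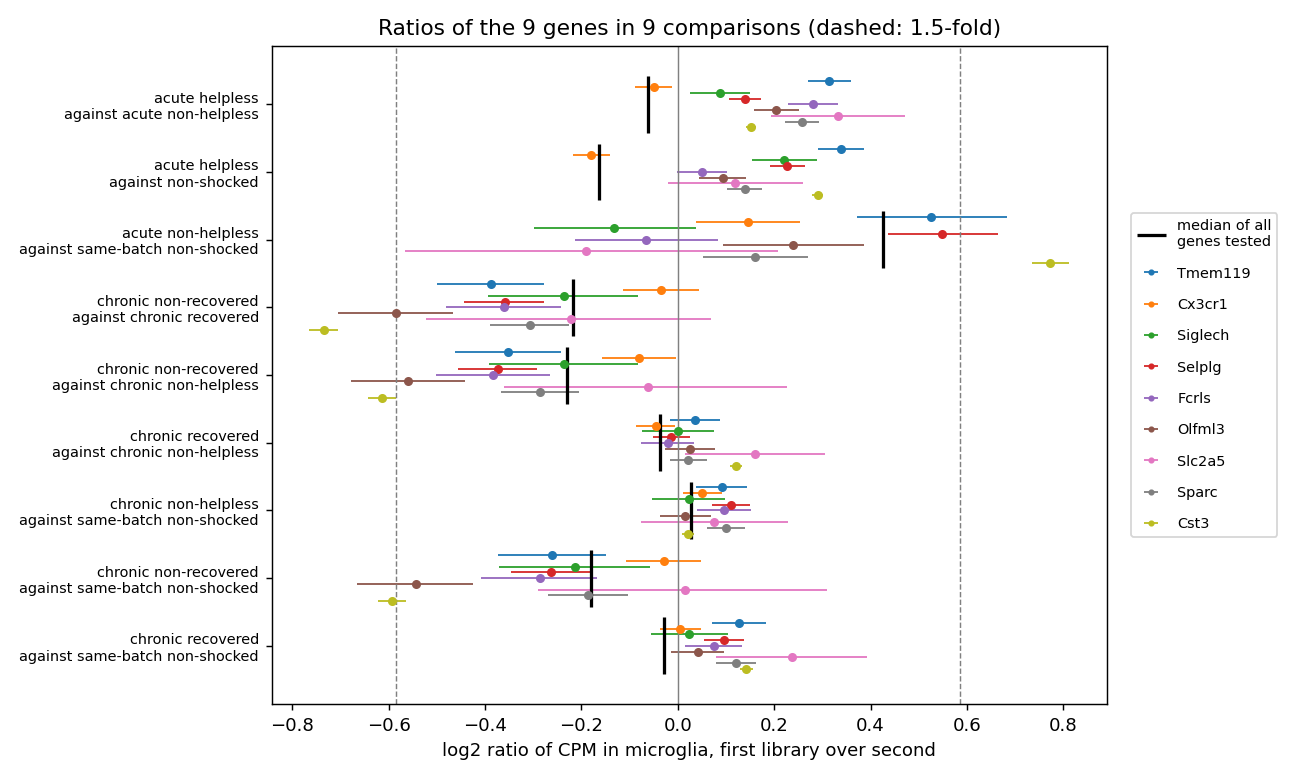
Log2 ratio of CPM in microglia for the 9 genes in the 9 comparisons, with exact 95% conditional binomial intervals. Black bars give the median of all genes measured in that comparison and dashed lines mark 1.5-fold. In the non-recovered comparisons Cst3 and Olfml3 lie furthest left of 0, with Slc2a5 at 1.01-fold, right of 0, against same-batch non-shocked cells, and Cst3 lies past 1.5-fold to the right in acute non-helpless against same-batch non-shocked cells.

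Ribosome-poor microglia had a lower level of Cst3 in each of the 6 libraries. Cst3 stood at 30431 CPM in ribosome-poor and 56314 in other non-shocked microglia, at 19604 and 56614 in acute non-helpless, 28133 and 63506 in the acute helpless library, 23099 and 55269 in chronic non-helpless, 14330 and 44052 in non-recovered, and 31606 and 58534 in recovered microglia. It was thus 1.85-fold to 3.07-fold lower, past 1.5-fold in 6 of 6 libraries. Among the 643 genes measured in all 6 libraries, ribosomal protein genes left out, 28.8% were at least 1.5-fold lower in each. Lower by any amount in each were 59.9%, and the median ratio was 0.65. Ribosome-poor cells held fewer UMIs (71505 against 1655290 in the recovered library), so genes at low levels were measured only where lower in them. The minimum of UMIs thus tilts these values of all genes toward ratios below 1.

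Of the other members, Tmem119 (median ratio 0.78) and Selplg (0.87) were also below 1 in all 6 libraries, and Olfml3 (0.76) in 5 of 6. Fcrls went the other way, with a median ratio of 1.24 and ratios above 1 in 4 of 6 libraries. In recovered microglia Fcrls was at 3818 CPM in ribosome-poor and 2714 CPM in other cells. Cx3cr1, Siglech, Slc2a5 and Sparc had median ratios between 0.92 and 0.98. Ribosome-poor cells were also shallow, with a median of 1484 to 2097 UMIs against 3843 to 4725 in other cells, and the part of depth in these ratios was not tested.

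**Figure D3:**
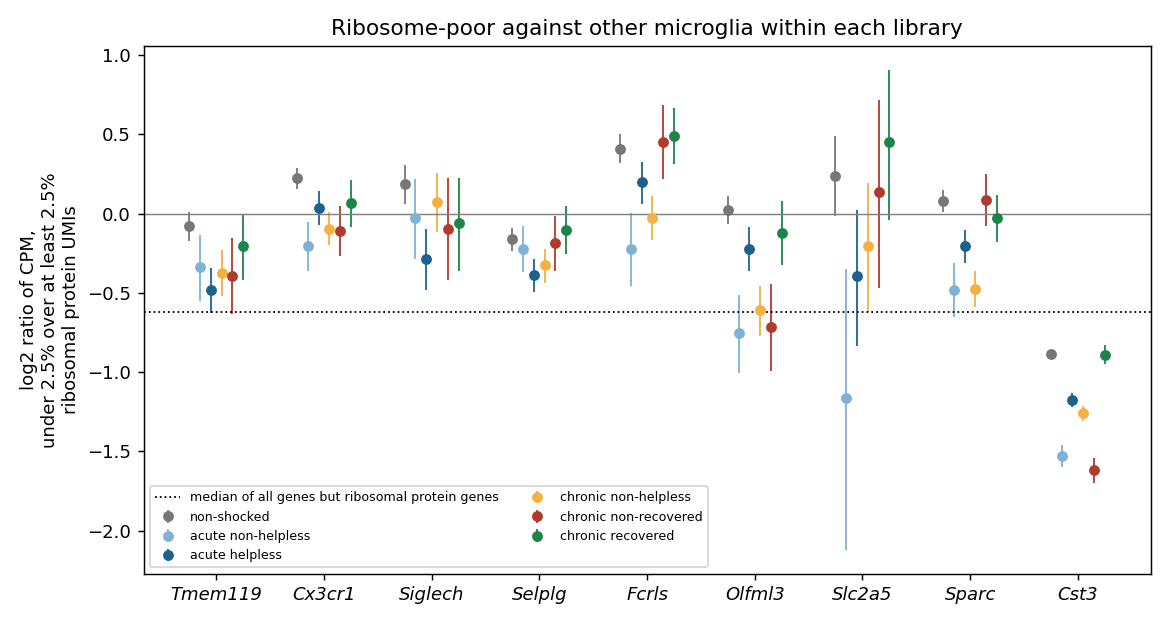
Log2 ratio of CPM in microglia with under 2.5% over microglia with at least 2.5% of UMIs in ribosomal protein genes, per gene and library, with exact 95% conditional binomial intervals. The dotted line is the median of 643 genes, ribosomal protein genes left out, which the minimum of UMIs tilts downward. Cst3 lies between 1.85-fold and 3.07-fold lower in all 6 libraries, and Fcrls lies above 0 in 4 of 6.

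The deposited clusters, which were made from the same expression values and are given only as a description, repeat this split. Cst3 was at 56936 CPM in cluster 1 (905 microglia), 61532 in cluster 2 (930), 57429 in cluster 4 (39) and 57009 in cluster 5 (217), but at 33747 in cluster 3 (395) and 26873 in cluster 6 (235). In clusters 3 and 6, 87.6% and 71.9% of the cells were ribosome-poor. Cluster 5, with no ribosome-poor cell, had a Cst3 level like that of cluster 1 and lower levels of the surface genes: Cx3cr1 was at 3931 CPM against 5091 in cluster 1, and Slc2a5 at 230 against 382. Non-recovered microglia fell into clusters 1 (41 cells) and 6 (58 cells). Their Cst3 was at 46805 CPM in cluster 1, below the 52067 to 62449 of the 4 other libraries with cells there, and at 14011 in cluster 6, against 22599 in recovered and 36243 in non-shocked cells.

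**Figure D4:**
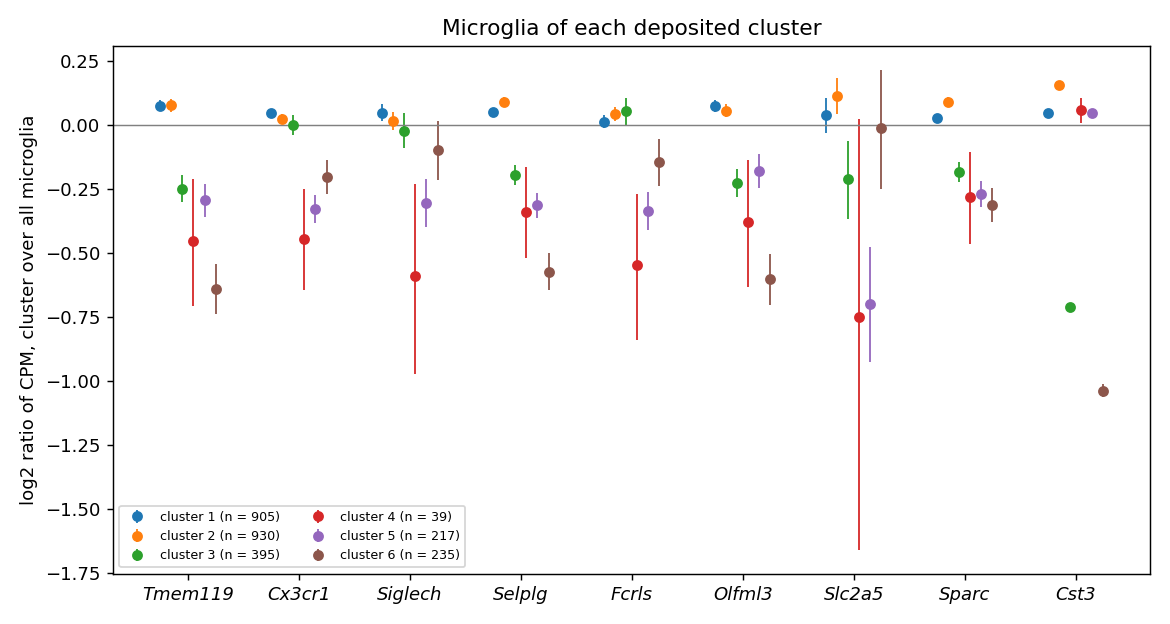
Log2 ratio of CPM in each deposited cluster over all microglia, per gene, with bars from the exact 95% Poisson interval of the cluster's level. Cst3 is lowest in clusters 3 and 6, and Cx3cr1 is lowest in clusters 4 and 5.

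Barcodes that were not called microglia also held the 9 genes, and most of them held other microglial transcripts as well. Of the 161 T cell barcodes, 118 held 0.5% or more of their UMIs in the 7 microglial markers chosen outside the 9 genes. These had a median of 17347 UMIs and carried the 9 genes at 62938 CPM together, with Cst3 at 69.7% of them, close to its 67.5% in microglia. Only 6 T cell barcodes were called doublets by Scrublet. In the recovered library 56 of 63 T cell barcodes were of this kind and in the non-recovered library 5 of 15, and T cell values over all barcodes are therefore not given by library.

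In the 43 T cell barcodes under 0.5%, with a median of 5190 UMIs, the 9 genes came to 1289 CPM. Selplg stood at 565 CPM with 88.4% of barcodes positive, Cst3 at 569 CPM with 79.1%, and Tmem119 at 49.1 CPM with 23.3%. Selplg was therefore 43.8% (38.3% to 49.5%) of the UMIs of the 9 genes there, against 6.88% in microglia. In the 19 NK cell barcodes under 0.5% Selplg was at 1432 CPM, 94.7% of barcodes were positive, and it made up 73.0% (65.7% to 79.4%). The Selplg share in these barcodes lay outside the range of 6.69% to 7.78% over the microglia of the 6 libraries. In the B cell barcodes Selplg was at 68.0 CPM with 29.4% positive.

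Cst3, Selplg and Cx3cr1 had at least 1 UMI in each of the 5 other cell types under 0.5%. How much of their low levels is free RNA, of which Cst3 would give the most at 5.52% of microglial UMIs, was not tested. In the 10 monocyte barcodes under 0.5% Cst3 stood at 3335 CPM with all 10 positive, and it was 84.4% (80.5% to 87.8%) of the UMIs of the 9 genes. In the 11 macrophage barcodes under 0.5% it stood at 1105 CPM, and in the B cells at 329 CPM with 82.4% positive. Olfml3 and Slc2a5 had 0 UMIs in the NK cell, monocyte, macrophage and B cell barcodes under 0.5%, which allows up to 41.6 CPM in NK cells. The 11 macrophage barcodes held fewer UMIs in total than the NK cell barcodes, so 0 UMIs allows a higher level there. Cx3cr1 in the same monocyte barcodes was at 119 CPM, from 2 of 10 barcodes. The names of these types are the deposited ones. Over all 42 monocyte barcodes, 6 neutrophil markers summed to 29947 CPM against 2489 for 5 monocyte markers. Over all 25 macrophage barcodes, 4 B cell markers summed to 4326 CPM against 837 for 7 border macrophage markers. The levels given here may thus not be those of monocytes and macrophages.

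**Figure D5:**
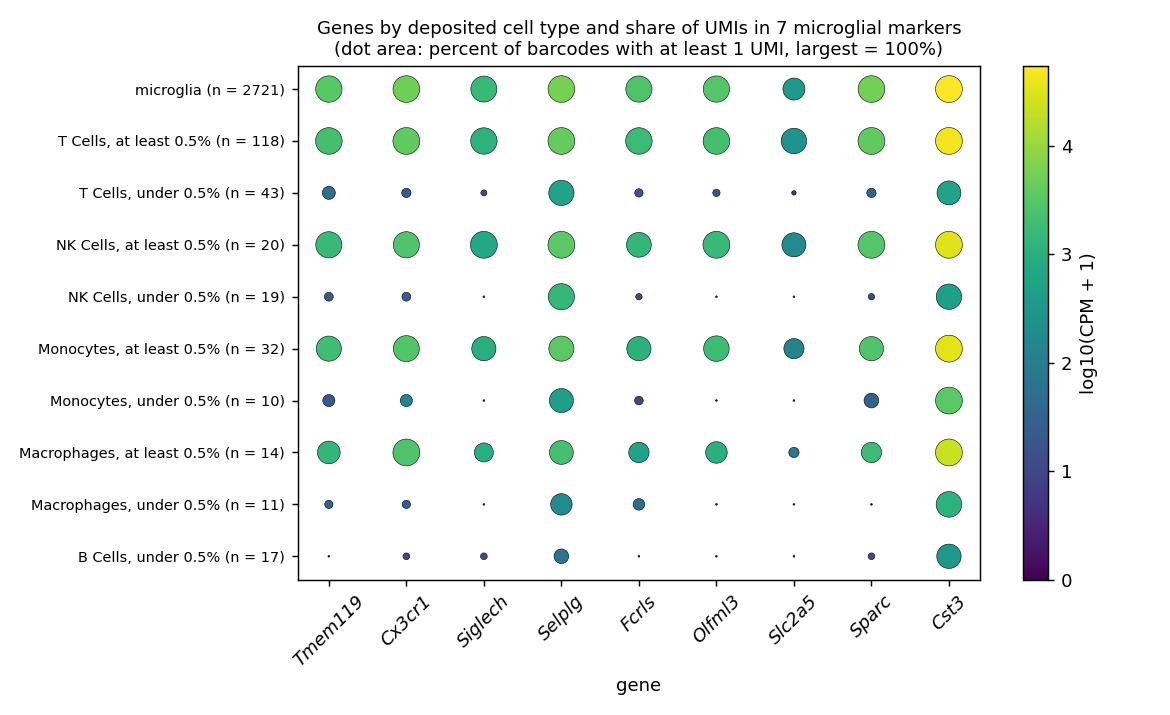
Each gene by deposited cell type, with barcodes other than microglia split by whether at least 0.5% of their UMIs lie in 7 other microglial markers. Colour is log10 of CPM + 1 and dot area the percent of barcodes with at least 1 UMI. Among barcodes under 0.5%, Selplg (94.7% of NK cells) and Cst3 (100% of monocytes) have the highest shares.

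Between the 9 genes, levels over the 7 microglial sums (6 libraries, the non-shocked one split by batch) were most alike for Tmem119 and Selplg (r = 0.98) and least for Cx3cr1 and Siglech (r = -0.80). Over the same 7 sums, the gene most like Cst3 among 3537 candidates was C1qb (r = 0.996), a complement subunit, and the gene most like Selplg was Syngr2 (0.997). The nearest genes were Tmed3 for Tmem119 (0.987), Tmem109 for Olfml3 (0.993), Litaf for Sparc (0.977), Scamp1 for Cx3cr1 (0.977), Laptm5 for Fcrls (0.969) and Usp2 for Slc2a5 (0.845). Next came Uqcrc1 for Tmem119, Tlr2 for Cx3cr1, Laptm4a for Selplg, Gnptg for Fcrls, Ctsz for Olfml3, Slc35c2 for Sparc and Paics for Cst3. The sums share batches, depth and cell makeup, and these values are descriptions. Within libraries, across cells thinned to 1000 UMIs, the 36 pairs of genes had median correlations of 0.0088 to 0.336. The highest were Sparc with Cst3 (0.336), Selplg with Cst3 (0.319) and Tmem119 with Selplg (0.281).

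Genes around the members were taken from 3 lists. Of 30 other homeostatic genes, 3 were at least 1.5-fold lower and 1 higher in non-recovered against recovered microglia, with a median ratio of 0.87, where 21.8% of all genes were lower and 10.7% higher by that much. The lower ones were Tyrobp, the adaptor that Siglech signals through (1507 against 2471 CPM), Crybb1 (201 against 416) and Ecscr (283 against 430), and the higher one was Itgb5, an integrin subunit (1017 against 372). P2ry12 stood at 5583 against 7397 CPM, below 1.5-fold. In acute helpless against acute non-helpless microglia Itgb5 (1346 against 574 CPM) and Crybb1 (519 against 284) were higher and Gpr165 (53.8 against 95.7) was lower, out of 30. Of all genes, 8.89% were that much higher and 9.28% lower, so the list did not exceed these shares.

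Of 14 listed names of the transforming growth factor beta pathway, with Lrrc33 an older name of Nrros, 8 were measured in non-recovered against recovered microglia. All 8 had ratios above 1, with a median of 1.26. Of all 4262 genes, 1181 were above 1, a share that the minimum of UMIs lowers. Genes at low levels were measured only where they were higher in the deeper recovered library, so the contrast with all genes is skewed. Of the 8, Smad7 and Itgav were past 1.5-fold, where 10.7% of all genes were that much higher. Smad7, an inhibitor of the pathway, stood at 224 against 44.6 CPM (ratio 5.02, 3.57 to 7.04) and Itgav at 227 against 102 (2.23, 1.66 to 2.96). Against chronic non-helpless microglia again 8 of 8 were above 1, against 1137 of all 4395 genes. Of the 8, 3 were past 1.5-fold, where 9.33% of all genes were that much higher, Tgfb1 being the third, at 691 against 250 CPM. Tgfb1 was at 710 CPM in the non-shocked, 316 in the acute non-helpless, 664 in the acute helpless, 250 in the chronic non-helpless, 691 in the non-recovered, and 635 CPM in recovered microglia. Its 2 non-helpless libraries were thus the lowest. Smad7 was lowest in the recovered library and Itgav in the acute non-helpless library. Against same-batch non-shocked microglia, 6 of the 8 were above 1 and 2 below in non-recovered cells, against 1173 of all 4476 genes above 1. None of the 8 was past 1.5-fold, where 23.3% of all genes were. In acute helpless against acute non-helpless microglia, Tgfb1 (ratio 2.10), Smad7 (2.54), Itgav (1.58) and Smad4 (1.53, 0.965 to 2.48) were past 1.5-fold out of 11 measured, where 8.89% of all genes were that much higher. Against non-shocked microglia, however, all 11 measured were below 1 in acute helpless cells, as were 4470 of all 7392 genes. Their median ratio was 0.72, against 0.89 for all genes. Of the 11, 4 were at least 1.5-fold lower, where 24.2% of all genes were.

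Of the 19 ligands and partners of the members, 11 were measured in the same comparison. Tyrobp, Fcer1g (1411 against 2297 CPM) and Ctsl, a cathepsin of the kind that cystatin C inhibits (869 against 1443), were at least 1.5-fold lower in non-recovered than in recovered microglia, 3 of 11 where 21.8% of all genes were. Ctss, another cathepsin, stood at 4129 against 5705 CPM and Ctsb at 2142 against 2358. The fractalkine gene Cx3cl1 had 2 UMIs in all microglia, and the selectin genes Selp and Sele and the growth factor gene Bmp4 had 0. In acute helpless against acute non-helpless microglia none of the 11 measured partners was 1.5-fold apart, where 18.2% of all genes were.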

How the data were processed

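Per the labels' protocols, cells were enriched on Percoll, sorted for CD45 and live cells and made into libraries with a 5′ single-cell kit. The tools named in the submitters' processing notes are Cell Ranger (version 2.2.0) and Seurat (version 2.3.4), with build mm10. The authors deposited raw UMI counts per gene and cell, and metadata with counts of UMIs and genes per cell, batch, cluster and cell type. UMI sums equalled the deposited totals in all 3005 cells. No source used here says how cells were filtered and typed or what a batch is. Deposited normalized values and merged copies were not used.

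From the counts, UMIs were summed over the barcodes of a class and divided by their total (CPM), with exact 95% Poisson intervals. Shares have Clopper-Pearson intervals and ratios of libraries conditional binomial intervals. PCR copies are collapsed by UMIs, and intervals cover counting error only. Genes with 20 CPM and 30 UMIs or more in the higher library were measured and called at 1.5-fold, and counts under 3 UMIs in the lower library were set to 3. Where the sides differed much in total UMIs, the minimum of UMIs tilts the values of all genes toward those higher on the deeper side. This holds for the comparisons of the non-recovered library, for acute non-helpless against same-batch non-shocked microglia and for ribosome-poor against other microglia. The split of barcodes at 0.5% used the summed UMIs of 7 microglial markers outside the 9 genes, P2ry12, Csf1r, Trem2 and C1q genes among them. Likeness is Pearson's r of log2(CPM + 10) among genes with a mean of at least 50 CPM. Named genes were the 9 members, the genes most like each (up to 2, some of which are not reported here), and genes of the 3 lists past 1.5-fold, with a few other listed genes chosen after their values were seen (P2ry12, Csf1r, Ctss, Ctsb, Cx3cl1, Selp, Sele and Bmp4). Doublets were called with Scrublet in scanpy 1.11.5 (56 of 3005 barcodes), kept in the main values and left out in an alternative. Python 3.11.15, numpy 2.4.6 and scipy 1.17.1 were used, and the ratio code was tested on simulated data. The members and lists were chosen with earlier results of these data known.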

Additional observations from a re-analysis of the deposited data

Results flagged for a closer look

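Of the 9 genes, 7 were above 1 in acute helpless over acute non-helpless microglia and below 1 in chronic non-recovered over chronic non-helpless microglia, with both intervals clear of 1. The chronic ratio divided by the acute ratio was 0.588 for Cst3, 0.589 for Olfml3, 0.630 for Tmem119, 0.632 for Fcrls, 0.686 for Sparc, 0.701 for Selplg and 0.799 for Siglech. This difference between paradigms was not tested, since there was 1 library per group. The same pattern was found in 95 of 4119 genes (2.31%), and in 60 of the 326 genes (18.4%) that were at least as abundant as the lowest member in all 4 libraries. Among cells with at least 2.5% ribosomal protein UMIs, all 7 kept these directions: the chronic ratios of Cst3, Olfml3, Tmem119, Siglech and Selplg lay nearer to 1 (Cst3 at 0.80), and those of Fcrls (0.68) and Sparc (0.79) further from it. The acute libraries were in different batches.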

How the results depend on the processing

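Counts of members past 1.5-fold kept within 1.5 times their value in 78 of 105 alternatives. This tally, and that of single genes below, include settings that could not move a value. These are the lower gene minimum, and leaving out neutrophil-rich barcodes where neither library held any. Acute helpless against non-shocked went from 0 to 3 with batch 2 controls. Acute non-helpless against same-batch non-shocked (1) went to 3 with median-of-ratios size factors, thinning to 1000 UMIs or a total without mitochondrial and ribosomal protein genes, and to 0 with at least 2.5% ribosomal protein UMIs or all non-shocked cells. Non-recovered against recovered (2) went to 1 with at least 1000 UMIs per cell, under 5% mitochondrial UMIs, without Scrublet doublets, without microglia under 0.5% marker UMIs, or without neutrophil-rich barcodes, and to 0 with at least 2.5% ribosomal protein UMIs. Non-recovered against chronic non-helpless (1) went to 2 with size factors, equal cell weights, thinning or the reduced total. It went to 0 with the ribosomal minimum, the marker minimum or without neutrophil-rich barcodes. Non-recovered against same-batch non-shocked (1) went to 2 with size factors or equal weights, and to 0 with thinning, at least 1000 UMIs, the ribosomal minimum, the marker minimum, without neutrophil-rich barcodes, or with all non-shocked cells. The cause was not tested. Leaving out neutrophil-rich barcodes, or the 286 genes without a UMI in one set of batches, was chosen after seeing the data.

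Of 945 ratios of single genes, 777 stayed inside the counting interval of the reported ratio, 168 did not, and 52 lay on the other side of 1. In acute helpless against acute non-helpless microglia 8 genes were above and 1 below 1 in all 11 alternatives, including those that could not change a ratio. In non-recovered against recovered microglia, Siglech after thinning and Cx3cr1 in 4 alternatives lay above 1. No paired analysis was possible because each group had 1 library. Depth limits Slc2a5 most, with 111 UMIs in non-recovered and 62 in batch 2 non-shocked microglia.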
